A study of Mus musculus with 15 samples.

Results

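The genes described here are 46 genes of DNA replication and of the step from G1 into S phase of the cell cycle. They were chosen by gene symbol, and each was represented by the probe set with the highest mean over all 15 arrays. Of the 46, 45 had a probe set assigned to that gene alone, and all 45 were among the 11908 genes tested, of 18194 genes with such a probe set. Chaf1a matched no such probe set and was not analysed here. Of the 45, 42 had a signal above the median of their own array on every array, and the weakest, Tyms, did so on 10 of 15 arrays.

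Copying the genome begins in G1, when the origin recognition complex, Cdc6 and Cdt1 load the ring-shaped Mcm2 to Mcm7 helicase onto DNA, a step called licensing. Cyclin E and the E2F transcription factors then carry the cell into S phase, Cdc45 and the GINS complex switch the helicase on, and primase and the replicative polymerases copy DNA while the Pcna clamp holds them in place. E2F factors bind promoters of many of these genes and switch them on together, so the RNA of the group is widely used as a sign of how many cells in a culture are preparing for or passing through S phase. In bulk RNA such as this, fewer cells in S phase and less RNA per cell cannot be told apart.

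The arrays measured sorted cells in 5 groups of 3. Side population (SP) cells retain little of a DNA-binding dye because ABC transporters pump it out, and non-SP cells retain it. The 3447 SP, 3447 non-SP and 4346 SP groups were tumorspheres, free-floating cultures of brain tumour cells; each of lines 3447 and 4346 goes back to a tumour of a mouse with the S100beta-verbB transgene and a p53-/- or p53+/- genotype, was implanted in the brains of immunodeficient hosts (NOD.Cg-Prkdc<scid>Il2rg<tm1Wjl>/SzJ) to give 3 tumours, and was cultured again before sorting. The neurosphere SP and neurosphere non-SP groups were untransformed neural stem cell cultures of the same transgene and p53 genotypes, described as coming from 3 mice. All groups thus carry S100beta-verbB, in which the S100beta promoter drives the oncogene verbB, and have lost at least a copy of p53, while which genotype belongs to which array is not given. A line stands for a single primary tumour, the replicates of a line are separate hosts, and the host strain lacks mature lymphocytes but keeps its own microglia, vessels and stroma. Passages of the study description differ on whether the neurosphere cells had also passed through injected mice.

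Array medians of the deposited signal ran from 40.0 to 89.3, and the arrays were quantile-normalized for this. The ratio of 3' to 5' signal of the actin control was 5.30 on array 3 of 4346 SP and 2.49 to 3.29 on the other arrays, so results on 4346 SP are given without that array where it changes them. Neural stem cell markers were above the array median on every array of their group for 6 to 8 of 8 genes, and Prom1 lay below it on every array of the SP groups of both tumour lines. Of 7 microglia and macrophage markers, 6 lay below the median on every array of every group. Oligodendrocyte progenitor markers summed to 10400 to 22640 signal units per array in the tumour groups and 6978 to 12170 in neurospheres. The list was split: Pdgfra, Cspg4, Sox10 and Gpr17 were higher on every tumour array than on every neurosphere array. Olig2 was lower on every tumour array (1084 to 3587, against 3613 to 5384). Olig1 ranged lower in the tumour groups with overlap (1062 to 3446, against 2963 to 5321).

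Promoter windows show what many of these genes share in sequence. RefSeq windows of 300 bases, from 250 before to 50 after the start of transcription (assembly GRCm38.p6), were found for 38 of the 46 members; Mcm4, Gins1, Gins2, Gins4, Pole, Prim2, Rfc2 and Ccne2 had none in the table used. An E2F-like motif, searched on both strands as TTCCCGC or as TTCGCGC or as TTGGCGC or as TTGCCGC, with overlapping matches counted separately, was present for 23 of the 38 members, or 60.5%. The same search found it for 57.8% of other replication genes, 20.0% of all genes tested with a window, 15.4% of mitosis genes and 10.9% of all genes with a window. At least 2 matches were found for 26.3% of members, 2.79% of all genes tested with a window and 1.37% of all genes with a window. The CCAAT motif, on either strand, was present for 57.9% of members and 80.8% of mitosis genes. It was present for 43.5% of all genes tested with a window and 41.1% of all genes with a window. The windows below belong to Mcm6, Rrm2 and Pole2, which passed a test against neurospheres, to Mcm5, a second helicase subunit with several matches, and to Cdc6, whose arrays did not overlap in either SP comparison; capitals mark the E2F-like matches, and each is written 5′ to 3′ on the strand of its gene. They lie at chr1:128359656-128359955 (minus strand), chr8:75109259-75109558 (plus strand), chr11:98907901-98908200 (plus strand), chr12:24708004-24708303 (plus strand) and chr12:69228141-69228440 (minus strand).
Mcm6: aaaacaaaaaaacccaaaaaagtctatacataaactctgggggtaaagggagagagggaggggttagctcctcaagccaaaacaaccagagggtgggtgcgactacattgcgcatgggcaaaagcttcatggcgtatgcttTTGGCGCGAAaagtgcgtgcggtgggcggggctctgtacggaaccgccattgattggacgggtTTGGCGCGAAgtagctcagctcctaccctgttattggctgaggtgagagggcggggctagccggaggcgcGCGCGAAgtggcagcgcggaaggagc
Mcm5: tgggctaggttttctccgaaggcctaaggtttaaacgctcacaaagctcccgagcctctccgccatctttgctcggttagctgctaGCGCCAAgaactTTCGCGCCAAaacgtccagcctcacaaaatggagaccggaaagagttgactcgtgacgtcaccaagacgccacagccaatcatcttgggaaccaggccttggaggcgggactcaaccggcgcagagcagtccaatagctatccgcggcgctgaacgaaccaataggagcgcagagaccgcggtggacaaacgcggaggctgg
Cdc6: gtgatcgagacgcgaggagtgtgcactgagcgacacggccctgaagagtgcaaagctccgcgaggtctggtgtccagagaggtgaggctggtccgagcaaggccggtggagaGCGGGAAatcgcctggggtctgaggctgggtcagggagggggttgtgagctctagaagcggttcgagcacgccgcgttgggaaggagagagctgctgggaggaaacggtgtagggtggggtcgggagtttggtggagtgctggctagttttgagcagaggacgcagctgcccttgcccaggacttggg
Rrm2: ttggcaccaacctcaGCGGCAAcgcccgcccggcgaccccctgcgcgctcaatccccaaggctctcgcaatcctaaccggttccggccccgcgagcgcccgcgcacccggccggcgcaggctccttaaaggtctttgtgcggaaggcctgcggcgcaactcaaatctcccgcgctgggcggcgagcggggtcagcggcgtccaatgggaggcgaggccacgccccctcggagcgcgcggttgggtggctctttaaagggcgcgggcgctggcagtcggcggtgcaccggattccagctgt
Pole2: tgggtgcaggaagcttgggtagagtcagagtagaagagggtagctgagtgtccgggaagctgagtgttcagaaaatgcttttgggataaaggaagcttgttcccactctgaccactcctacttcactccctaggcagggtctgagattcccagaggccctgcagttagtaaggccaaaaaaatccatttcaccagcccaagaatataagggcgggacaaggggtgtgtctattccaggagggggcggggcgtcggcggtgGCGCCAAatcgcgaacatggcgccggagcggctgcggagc

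Mcm6 held 5 matches, in places as overlapping matches on both strands, Mcm5 held 3, and Cdc6, Rrm2 and Pole2 held 1 each. A match describes the letters in the window and not a bound site. Among members with a window and a value, the median log2 difference of 3447 SP from 3447 non-SP was -0.63 for the 22 with a match and -0.48 for the 15 without, and 20 of the 22 and 14 of the 15 lay below 0.

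The first comparison asked how SP cells of the tumour line differ from the non-SP cells of the same line. In line 3447, nearly all replication and G1/S genes had a lower signal in SP than in non-SP cells, but none passed the test after adjustment over all genes. Of the 45 members, 42 had a log2 difference below 0, against 51.7% of all genes tested, and the median was -0.55 against -0.01 for all genes. For 28 members (62.2%), every SP array lay below every non-SP array on the normalized scale, against 8.44% of all genes, and for no member did every SP array lie above, against 9.07% of all genes. Among all genes, 0% were lower and 0.0084% higher at an adjusted p under 0.05 in limma; at an unadjusted p under 0.05, 24 members (53.3%) were lower and 0 higher, against 2.82% of all genes lower. The smallest adjusted p of a member was 0.198.

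**Figure D1:**
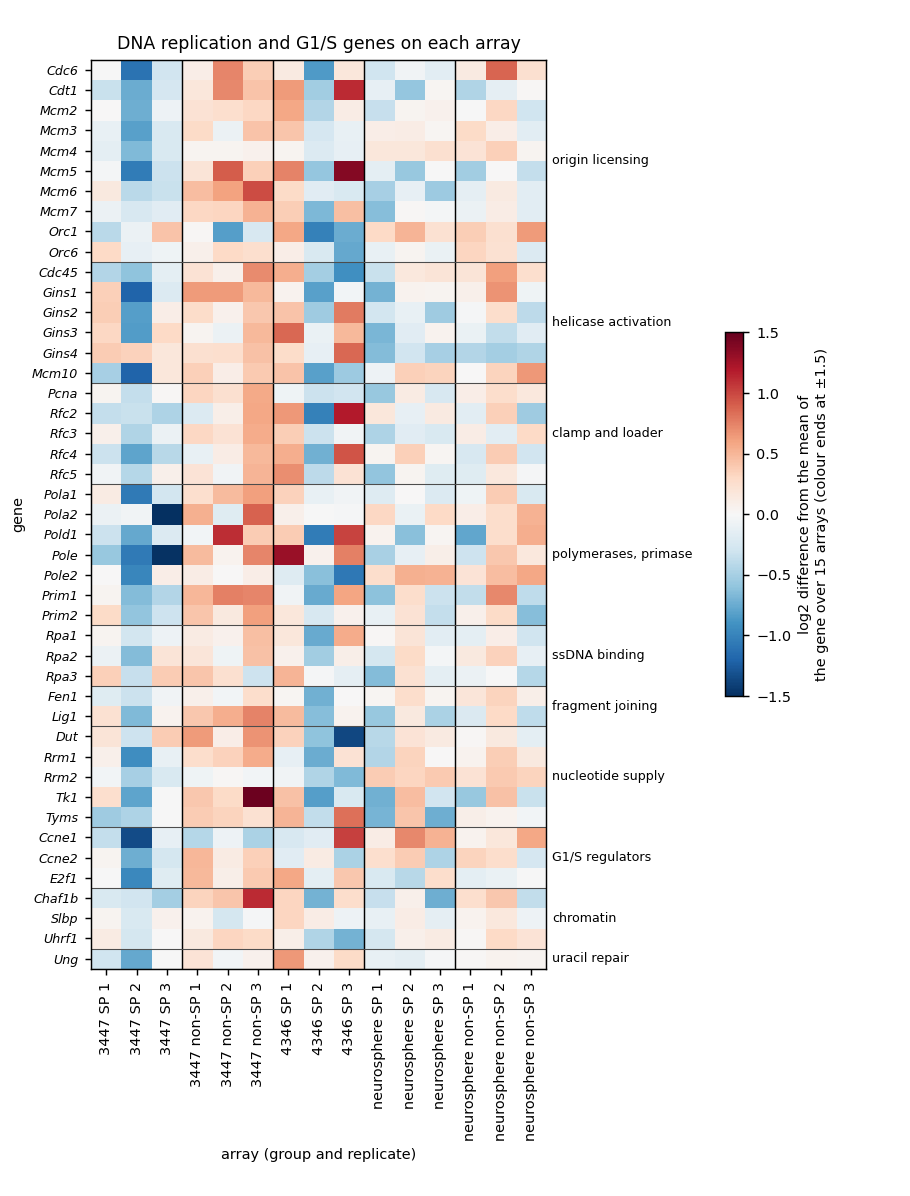
Heat map of the 45 measured genes (rows, grouped by role) on the 15 arrays (columns, grouped by sample group), with colour showing the log2 difference of the normalized signal from the mean of that gene over all arrays. The 3447 non-SP arrays are mostly red (higher), array 2 of 3447 SP and array 2 of 4346 SP are mostly blue (lower), and Orc1, Slbp and Rpa3 are the genes whose mean is not lower in 3447 SP than in 3447 non-SP.

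Of the licensing genes, 9 of 10 lay below 0 in 3447 SP, with a median of -0.57 and 8 not overlapping. The 6 subunits of the Mcm2 to Mcm7 ring were all among those 8. Mcm6 had deposited signals of 2827, 1962 and 1962 in 3447 SP and of 3568, 3858 and 5071 in 3447 non-SP. Each SP array was below the lowest non-SP array, and the log2 difference was -0.88 ± 0.21 (SE, n = 3 arrays per group, limma adjusted p = 0.2175). Mcm5 gave 1616, 808.5 and 1274 against 1895, 3106 and 2116, a difference of -0.96 ± 0.39. Mcm2 gave 2021, 1208 and 1848 against 2357, 2403 and 2496, with a smaller difference of -0.53 ± 0.26 and a tight non-SP group. Mcm4 had the smallest difference of the ring, -0.39 ± 0.12, but also the smallest SE.

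The loaders of the ring were split. Cdc6, the ATPase that joins the origin recognition complex, gave 506.9, 222.0 and 402.7 in 3447 SP against 523.1, 841.6 and 659.2 in non-SP cells, a log2 difference of -0.87 ± 0.34. Cdt1, which brings the ring to the origin, gave 1713, 1296 and 1752 against 2456, 3535 and 2862, a difference of -0.88 ± 0.32. In both genes the groups did not overlap. Orc1 and Orc6, subunits of the origin recognition complex itself, had overlapping groups. Orc1 had weak signals of 57.9, 55.4 and 131.1 in 3447 SP against 56.3, 37.1 and 48.0 in non-SP cells, with a difference of 0.33 ± 0.40, and Orc6 differed by -0.17 ± 0.22.

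The 6 genes of helicase activation all lay below 0, with a median of -0.55, but 2 of the 6 did not overlap. Gins1, a subunit of the GINS complex, gave 1471, 498.4 and 969.7 in SP against 1800, 1773 and 1606 in non-SP cells, a difference of -0.94 ± 0.36. Gins4, a subunit of the same complex, gave 1952, 1946 and 1636 against 1790, 1796 and 2051, a difference of -0.02 ± 0.22 with a 95% interval from -0.49 to 0.45. The remaining subunits, Gins2 and Gins3, were at -0.37 ± 0.34 and -0.22 ± 0.33. Cdc45, the helicase cofactor that travels with GINS, was at -0.73 ± 0.33 with groups apart, and Mcm10, which helps to start the helicase, was at -0.79 ± 0.36 with overlapping groups.

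Polymerase and primase genes had the lowest median of the larger roles, -0.91, and all 7 lay below 0. Pole, the catalytic subunit of the leading-strand polymerase epsilon, gave 246.1, 158.6 and 143.1 in 3447 SP and 480.6, 367.6 and 602.2 in non-SP cells. The highest SP array was well below the lowest non-SP array, and the difference was -1.45 ± 0.34, or 2.74-fold lower, with a 95% interval from -2.17 to -0.74 and an adjusted p of 0.198. Prim1, the catalytic subunit of primase, gave 2536, 1611 and 1760 against 3556, 4139 and 4139, or 2.03-fold lower (log2 -1.02 ± 0.34, limma adjusted p = 0.504). Pola1, the catalytic subunit of the polymerase that extends the primer, gave 1087, 474.9 and 790.6 against 1167, 1365 and 1507 (-0.85 ± 0.28). Pola2, its partner, had -1.30 ± 0.51 from low signals of 106.9, 88.7 and 12.2 against 136.9, 90.9 and 201.5, and its groups overlapped. Without array 3 of 3447 SP, the array at 12.2, the difference of Pola2 was -0.495. Pole2, the second subunit of polymerase epsilon, was at -0.37 ± 0.29 with overlapping groups.

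The clamp Pcna gave 7282, 5884 and 7218 in 3447 SP against 9987, 8849 and 12140 in non-SP cells, a difference of -0.48 ± 0.16 with groups apart. Of its loader, the replication factor C complex, Rfc2, Rfc3 and Rfc4 did not overlap, and Rfc5 was at -0.36 ± 0.29 with overlap. The single-strand binding subunits had differences of -0.31 ± 0.24 for Rpa1, -0.37 ± 0.25 for Rpa2 and 0.02 ± 0.29 for Rpa3. Both fragment-joining genes had groups apart, the flap nuclease Fen1 at -0.29 ± 0.16 and the ligase Lig1 at -0.69 ± 0.32.

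Genes that supply nucleotides all lay below 0. Tk1, the salvage enzyme thymidine kinase, gave 1898, 934.7 and 1533 in SP and 2112, 1918 and 4404 in non-SP cells, a difference of -0.90 ± 0.41. Of the ribonucleotide reductase subunits, Rrm1 was at -0.71 ± 0.30 with groups apart and Rrm2 at -0.22 ± 0.13 with overlapping groups on the normalized scale; the remaining probe sets of Rrm2 gave -0.55 and -0.48. Tyms, thymidylate synthase, was read from a weak probe set (-0.65 ± 0.37), and a brighter one that also matches a Tyms pseudogene gave 1318, 786.8 and 868.2 against 1380, 1504 and 2037, or -0.74. Dut, which removes dUTP, was at -0.39 ± 0.33, and Ung, which cuts uracil out of DNA, was at -0.43 ± 0.18, both with overlap.

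Among the regulators, E2f1, a transcription factor of the G1/S step, gave 805.7, 412.2 and 683.3 in 3447 SP against 1109, 855.6 and 1058 in non-SP cells, a difference of -0.71 ± 0.28 with groups apart. Of the cyclin E genes, Ccne2 was at -0.65 ± 0.29 with groups apart and Ccne1 at -0.28 ± 0.36 with overlap. Of the chromatin genes, Chaf1b, a subunit of the factor that places histones on new DNA, gave 211.6, 189.1 and 181.6 against 278.2, 319.3 and 532.7 (-0.96 ± 0.34), Uhrf1, which guides maintenance of DNA methylation, was at -0.29 ± 0.17 with groups apart, and Slbp, which binds histone mRNA, was at 0.03 ± 0.13. Orc1, Rpa3 and Slbp were the 3 members not below 0.

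Array 2 of 3447 SP stood below its group in these genes. It was the lowest of the 3 SP arrays for 38 of 45 members and for 28.8% of all genes, and the median deviation of the members from their mean over 15 arrays was -0.65 there, against -0.01 and -0.12 on the other SP arrays and 0.12 to 0.44 on the non-SP arrays. Without it, 40 members were still below 0 and 28 did not overlap (16.1% of all genes), the median was -0.40, and 5 members were lower at an unadjusted p under 0.05, against 3.25% of all genes. That count was 15 without array 1 of 3447 non-SP (1.56% of all genes) and 11 without array 3 (1.62%). Markers of other cells moved with the comparison: the 5 pericyte and fibroblast markers summed to 1075 to 3541 signal units in 3447 SP and 384.6 to 1819 in 3447 non-SP, and the 6 oligodendrocyte progenitor markers to 10400 to 14720 and 16300 to 18460. Col1a1 alone gave 865 to 2734 and 252.5 to 1309 of the pericyte and fibroblast sums. The part of these markers in the result was not tested.

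In neurospheres the same comparison of SP with non-SP cells gave smaller differences. Of the 45 members, 36 lay below 0, against 43.1% of all genes, with a median of -0.12 against 0.04 for all genes. The median was -0.05 without array 1 and -0.20 without array 2 of neurosphere SP, and -0.03 without array 2 of neurosphere non-SP. In 3 members (6.67%) every SP array lay below every non-SP array, against 3.22% of all genes: Cdc6, Rfc3 and Ung. In 0 members did every SP array lie above, against 4.35%. When each SP array was set against the non-SP array of equal number, 15 members (33.3%) were lower in all 3 pairs, against 14.6% of all genes, and 1 was higher in all 3, against 20.8%. Mcm6, at -0.36, -0.25 and -0.39 on its chosen probe set, was among the 15. With the mean over its probe sets, Mcm6 reversed to 0.19 in neurosphere SP against non-SP cells. No member passed the test (0.0084% of all genes lower and 0.0084% higher at an adjusted p under 0.05 in limma), and Pcna alone was lower at an unadjusted p under 0.05, against 1.19% of all genes. The count below 0 was 26 without array 1 of neurosphere SP, 28 without array 2 of neurosphere non-SP and 33 to 35 without each of the other neurosphere arrays, and the count not overlapping was 11 without array 2 of neurosphere SP, 8 without array 1 and 7 without array 3 of neurosphere non-SP, and 5 without array 3 of neurosphere SP, against 6.5% to 9.22% of all genes in these 4 settings. Markers of other cells moved here too: the 4 neuron markers tested were all below 0 (median -0.88), as were all 6 oligodendrocyte progenitor markers (median -0.39), while 5 of 6 astrocyte markers (median 0.81) and all 5 pericyte and fibroblast markers (median 0.46) were above 0, none passing the test. The 5 neuron markers summed to 243.5 to 643.4 signal units per array in neurosphere SP and 599.4 to 1409 in neurosphere non-SP, with Rbfox3 below the array median on every array, and the part of these markers in the result was not tested.

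Cdc6 had the lowest difference among neurosphere members. It gave 386.0, 462.6 and 427.3 in SP cells and 539.6, 905.0 and 585.2 in non-SP cells, a log2 difference of -0.58 ± 0.34. Pcna gave 5275, 8453 and 6587 against 7869, 9028 and 8488, a difference of -0.40 ± 0.16 with overlap. Mcm6 was at -0.33 ± 0.21 on its chosen probe set, Rfc3 at -0.37 ± 0.24 and Chaf1b at -0.43 ± 0.34. Of the genes described for line 3447, Mcm5 (0.06 ± 0.39), Cdt1 (-0.03 ± 0.32), Tk1 (-0.03 ± 0.41) and E2f1 (-0.04 ± 0.28) lay near 0 here, while Gins1 was at -0.43 ± 0.36. Pole was at -0.26 ± 0.34 and Ccne1 at 0.19 ± 0.36.

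**Figure D2:**
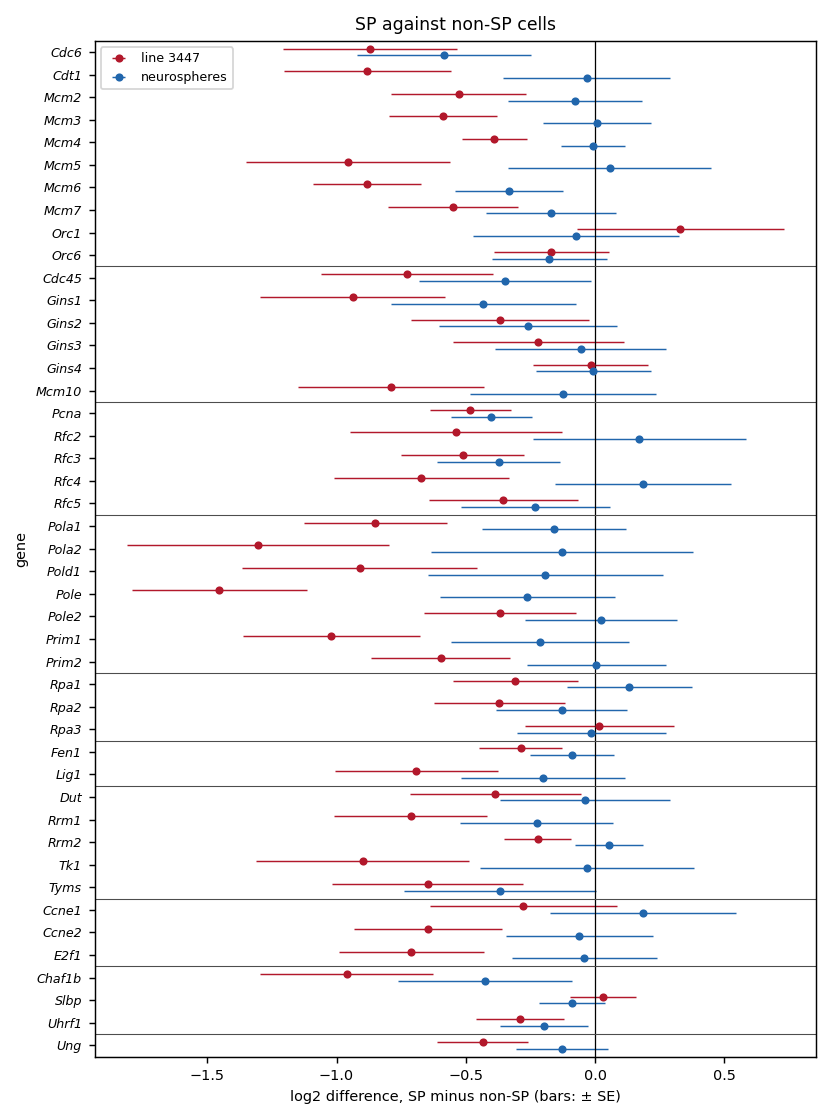
Log2 difference of SP minus non-SP cells (x axis, points; bars are ± SE) for each of the 45 genes (y axis, grouped by role) in line 3447 (red) and in neurospheres (blue). Red points lie below 0 for 42 genes, with Pole lowest at -1.45, and blue points lie below 0 for 36 genes within -0.58 to 0.19.

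The difference between the SP effects, line 3447 minus neurospheres, was tested directly. It was below 0 for 41 of 45 members (55.3% of all genes) with a median of -0.44, against -0.04 for all genes, but 0 members passed (0% of all genes), and every member had an adjusted p of 0.999 in limma. At an unadjusted p under 0.05, 2 members were lower, against 1.20% of all genes: Pole at -1.19 ± 0.48 and Mcm4 at -0.38 ± 0.18. The 95% interval of the difference for Cdc6 ran from -1.29 to 0.72 and for Mcm6 from -1.17 to 0.08. Without array 2 of 3447 SP the median was -0.22.

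Genes of mitosis and further genes of replication, from lists of their own, were fitted in the same model. Of 29 mitosis genes tested, 25 lay below 0 in 3447 SP against non-SP cells, with a median of -0.32. In array order, their median deviation from the mean of each gene over all arrays was 0.44, -0.53 and 0.45 in 3447 SP. In 3447 non-SP it was 0.43, 0.23 and 0.5. Only array 2 of 3447 SP lay below the non-SP arrays, and the other SP arrays lay within the non-SP range. In neurosphere SP against non-SP cells, 27 of the 29 lay above 0, with a median of 0.33. None passed in either comparison. Aurka, a mitotic kinase, was at 0.87 ± 0.33 and Plk1, another, at 0.84 ± 0.40 in neurospheres. Of 54 other replication and S phase genes, 45 lay below 0 in line 3447 (median -0.38, 18 not overlapping) and 38 in neurospheres (median -0.11), and none passed. Among all genes, 51.7% lay below 0 in line 3447 and 43.1% in neurospheres, and 8.44% had every SP array below in line 3447. Cdc7, the kinase that fires licensed origins, was at -0.68 ± 0.26 in line 3447, and Ticrr, which helps to load Cdc45, at -0.87 ± 0.35.

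**Figure D3:**
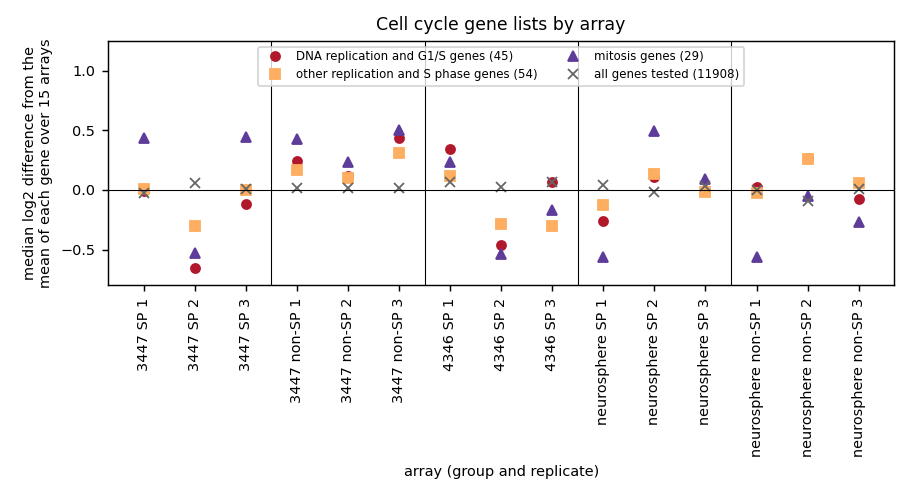
Median log2 difference of each gene list from the mean of each gene over the 15 arrays (y axis), one point per list and array (x axis). Replication and G1/S genes were lowest on array 2 of 3447 SP (-0.65) and array 2 of 4346 SP (-0.46), where mitosis genes were also low (-0.53 and -0.54), and all genes tested stayed between -0.10 and 0.07.

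The remaining comparisons set tumour cells against neurosphere cells of the same sort, and the lines against each other. Between tumour and neurosphere cells, 5 of the 45 members passed in at least 1 of 3 comparisons: Gins4, Rrm2, Mcm4, Pole2 and Mcm6. This count was not made for all genes, whose shares are given below for each comparison. The comparisons of 3447 SP and of 4346 SP with neurosphere SP share the neurosphere SP arrays, and the 3447 SP arrays also enter the comparisons with 3447 non-SP and 4346 SP. In 3447 SP, 1 member was higher, against 10.7% of all genes, and 2 were lower, against 8.94%. In 4346 SP, 1 was higher, against 14.0%, and 2 were lower, against 10.3%. In 3447 non-SP, 2 were higher than in neurosphere non-SP, against 11.2%, and 0 lower, against 8.21%; at an unadjusted p under 0.05, 1 member was lower, against 14.1%. The medians of the members were -0.19, 0.12 and 0.27, and 31, 20 and 10 of 45 lay below 0, against 52.1%, 49% and 47.2% of all genes. The first turned to 0.03 without array 2 of 3447 SP, and the second to -0.02 without array 1 and -0.01 without array 3 of 4346 SP, and to -0.02 with the mean over the probe sets of a gene. Tumour and neurosphere groups also differed in cell type markers: the 5 pericyte and fibroblast markers summed to 8252 to 8608 signal units in 4346 SP and 232.2 to 319.6 in neurosphere SP. Most of the 4346 SP sum came from Col1a1 (7366 to 7658, against 65.5 to 122.4 in neurosphere SP). Col3a1 was also higher, while the ranges of Pdgfrb, Rgs5 and Acta2 overlapped. The part of these markers in the values below was not tested.

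Gins4 was higher in every tumour group. It gave 1952, 1946 and 1636 in 3447 SP, 1837, 1375 and 2766 in 4346 SP and 929.9, 1215 and 1036 in neurosphere SP, and each tumour array was above each neurosphere array. The difference was 0.78 ± 0.22 for 3447 SP (1.71-fold, limma adjusted p = 0.0217) and 0.82 ± 0.22 for 4346 SP (1.77-fold, adjusted p = 0.0136). In non-SP cells it gave 1790, 1796 and 2051 in line 3447 and 1114, 1030 and 1097 in neurospheres, a difference of 0.79 ± 0.22 (1.73-fold, adjusted p = 0.0197). No other GINS subunit passed. The call was lost for 3447 SP without array 1 (adjusted p = 0.0705) or 2 (0.0617) of 3447 SP or array 1 (0.0845) or 3 (0.0547) of neurosphere SP, for 4346 SP without array 3 of 4346 SP (0.0516) or array 1 of neurosphere SP (0.0556), and for non-SP cells without array 3 of 3447 non-SP (0.0769) or array 2 of neurosphere non-SP (0.0551). Centring arrays on their medians ended it in 3447 SP (0.279) and non-SP cells (0.0584), and fitting the groups compared alone ended it in 4346 SP (0.103). Leaving out array 3 of both tumour SP groups together also ended it in 4346 SP (0.0603).

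Rrm2, the regulated subunit of ribonucleotide reductase, was lower in the SP of both tumour lines. It gave 10710, 8530 and 9643 in 3447 SP, 11800, 8913 and 7686 in 4346 SP and 15090, 15730 and 15820 in neurosphere SP. The neurosphere arrays lay close together and above all tumour arrays. The difference was -0.62 ± 0.13 for 3447 SP (1.54-fold lower, limma adjusted p = 0.00303) and -0.76 ± 0.13 for 4346 SP (1.70-fold lower, adjusted p = 0.000522). Other probe sets of Rrm2 gave -1.97 and -1.80 for 3447 SP and -2.40 and -1.96 for 4346 SP. In non-SP cells, Rrm2 gave 12050, 11980 and 12540 in line 3447 and 12880, 15790 and 14710 in neurospheres, with -0.35 ± 0.13 and an adjusted p of 0.0776. It passed when its probe sets were averaged (-1.11, adjusted p = 0.00833), with the groups compared alone (0.0108) and with array weights (0.0476). Rrm2 also passed without array 1 (0.0282) or 3 (0.0371) of 4346 SP. Those arrays enter this comparison only through the normalization, the filter, the choice of probe sets and the shared spread. No array left out ended either SP call, and centring on medians ended that of 4346 SP (adjusted p = 0.114).

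Mcm4 was lower in 3447 SP, at 6876, 5154 and 6547 against 9160, 9424 and 9797 in neurosphere SP (-0.54 ± 0.12, 1.45-fold lower, limma adjusted p = 0.00619), with no overlap. In 4346 SP it gave 8559, 7231 and 7641, a difference of -0.28 ± 0.12 that did not pass (adjusted p = 0.111). Taking the mean of its probe sets gave 3447 SP an adjusted p of 0.0513. Pole2 was lower in 4346 SP, at 351.3, 246.6 and 177.7 against 469.8, 580.2 and 574.2 (-1.07 ± 0.29, 2.10-fold lower, adjusted p = 0.0148), also with no overlap. In 3447 SP, Pole2 gave 423.4, 201.3 and 437.2 (-0.73 ± 0.29, adjusted p = 0.0959). The Pole2 call was lost without array 3 of 4346 SP (0.0627), the array with the high actin ratio, with centring on medians (0.0796) and with the groups compared alone (0.0505). Leaving out array 3 of both tumour SP groups together also ended the Pole2 call (0.0554).

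Mcm6 was higher in 3447 non-SP, at 3568, 3858 and 5071 against 2362, 2716 and 2326 in neurosphere non-SP (0.74 ± 0.21, 1.67-fold, limma adjusted p = 0.0202), with groups apart. Among SP cells it gave 0.19 ± 0.21 for line 3447 and 0.36 ± 0.21 for line 4346. With the mean over its probe sets, Mcm6 was at -0.05 for 4346 SP. Mcm6 had other probe sets, which gave 0.78 and -0.01 in non-SP cells, and their mean gave an adjusted p of 0.288. The call was also lost without array 3 of 3447 non-SP (0.110) or array 1 (0.0659) or 3 (0.0614) of neurosphere non-SP, and with centring on medians (0.0560). In the same comparison 9 members had every tumour array above every neurosphere array, against 21.3% of all genes, and 4 every array below, against 17.5%. The count above was 20 without array 2 of 3447 non-SP (26.1% of all genes) and 22 without array 2 of neurosphere non-SP (25.3%). Those above were Mcm5, Mcm6, Mcm7, Cdt1, Gins3, Gins4, Lig1, Tyms and E2f1, and those below were Orc1, Pole2, Rrm2 and Ccne1.

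Ccne1 lay at the threshold in 3447 SP. It gave 344.4, 158.5 and 394.7 against 444.2, 689.8 and 601.2 in neurosphere SP, with no overlap and a difference of -1.06 ± 0.36, 2.08-fold lower (limma adjusted p = 0.0503). With equal replicate numbers of the neurospheres as a block, the adjusted p was 0.0423. It also passed with centring on medians (0.0259), the mean of its probe sets (0.0305) and array weights (0.0316). Ccne1 passed without array 3 of 3447 SP (0.0381), array 1 (0.0484) or 3 (0.0187) of 4346 SP, or arrays 3 of both groups together (0.0107). In all other settings, as in the main fit, Ccne1 did not pass. For 4346 SP the Ccne1 difference was -0.25 ± 0.36, and for 3447 non-SP it was -0.59 ± 0.36.

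**Figure D4:**
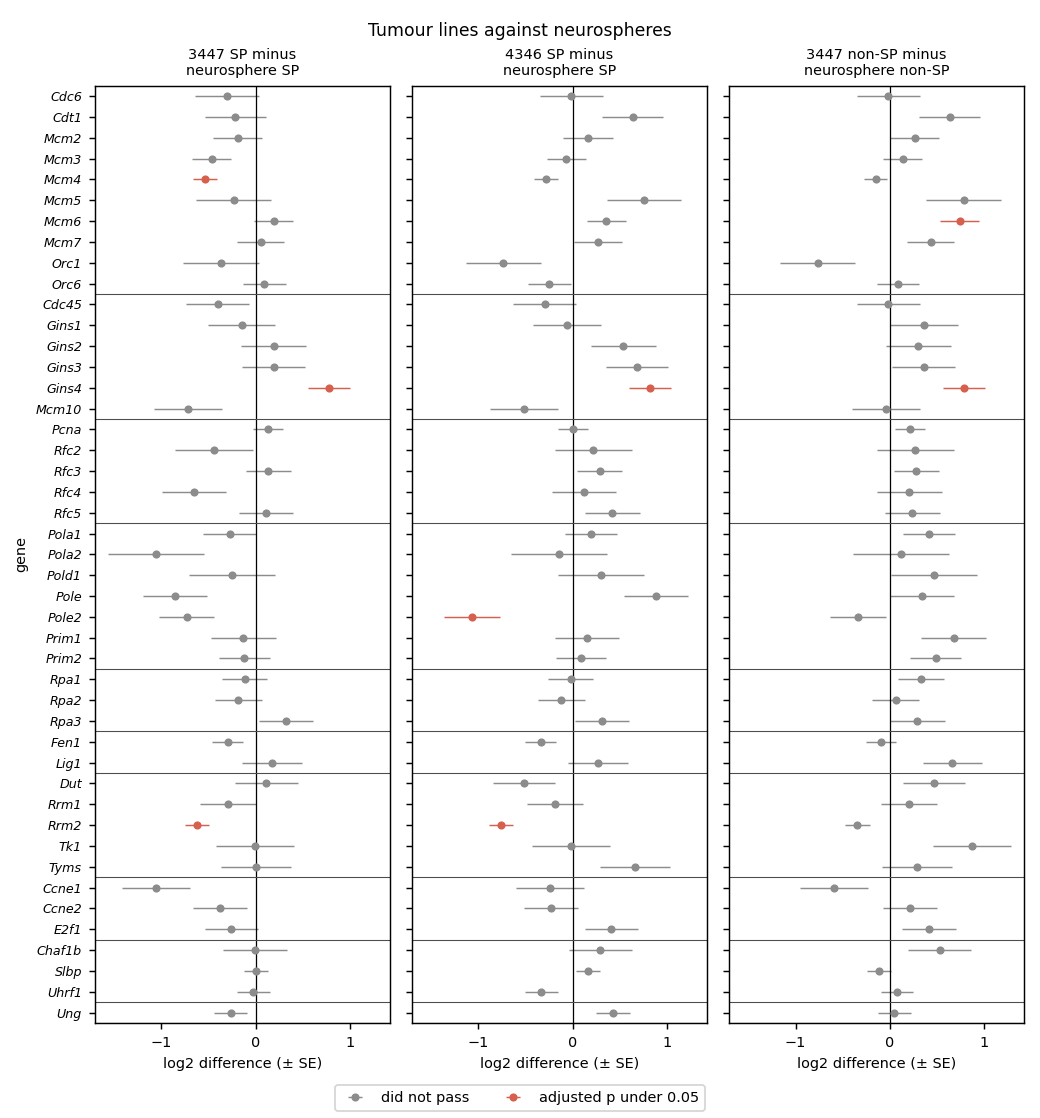
Log2 difference (x axis, points; bars are ± SE) of tumour minus neurosphere cells for the 45 genes (y axis, grouped by role) in 3 panels. Red points passed at an adjusted p under 0.05: Gins4 in all 3 panels, Rrm2 in both SP panels, Mcm4 in 3447 SP, Pole2 in 4346 SP and Mcm6 in the non-SP panel.

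Other cell cycle genes passed in the same comparisons. Of 54 other replication genes, 2 were higher and 4 lower in 3447 SP, against 10.7% and 8.94% of all genes. In 4346 SP, 3 were higher and 5 lower, against 14% and 10.3%. In 3447 non-SP, 3 were higher and 2 lower, against 11.2% and 8.21%. Asf1b, a histone chaperone, was higher in all 3, at 0.97 ± 0.28, 0.99 ± 0.28 and 1.67 ± 0.28, and Hells, a chromatin remodelling helicase, was lower in all 3, at -1.11 ± 0.23, -1.04 ± 0.23 and -0.92 ± 0.23. Of 29 mitosis genes, 6 were higher in 3447 non-SP, against 11.2% of all genes, among them Racgap1 (1.55 ± 0.35) and Foxm1 (1.13 ± 0.28). In 3447 SP 0 passed, and in 4346 SP 1 was lower (Kif20a, -0.99 ± 0.32), against 10.3% of all genes.

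Between the tumour lines, 35 of 45 members lay below 0 in 3447 SP against 4346 SP, against 54.1% of all genes, with a median of -0.21, and 1 member passed. The median was -0.06 with 27 below 0 without array 2 of 3447 SP, -0.35 without array 1 of 3447 SP, -0.08 with 29 below 0 without array 1 of 4346 SP and -0.45 without array 2 of 4346 SP. Pole was 3.33-fold lower in 3447 SP than in 4346 SP, where it gave 876.0, 354.1 and 597.5, a difference of -1.74 ± 0.34 (limma adjusted p = 0.0139), and no member was higher, against 1.19% of all genes lower and 0.462% higher. The mean of neurosphere SP lay between, with signals of 229.1, 312.5 and 360.5, with -0.86 ± 0.34 for 3447 SP (adjusted p = 0.0892) and 0.88 ± 0.34 for 4346 SP (adjusted p = 0.0700). The call was lost without array 2 (0.0527) or 3 (0.0812) of 3447 SP or array 1 of 4346 SP (0.0628), and with the groups compared alone (0.0796). Leaving out array 3 of both SP groups together also ended the Pole call (0.174). Ung followed at -0.69 ± 0.18 (adjusted p = 0.0634), with every 3447 array below every 4346 array.

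Array 2 of 4346 SP was the lowest of its group for 33 of 45 members, against 31.9% of all genes, and the median SD of a member in 4346 SP was 0.50 on the log2 scale, against 0.36 for all genes. In 3447 SP these were 0.38 and 0.28. In the other groups the medians were 0.21 to 0.28 for the members and 0.23 to 0.31 for all genes. Without array 2 of 4346 SP, 9 members (20%) passed against neurosphere SP, 7 of them higher, against 23.1% of all genes, and 6 (13.3%) passed, all lower, in 3447 SP against 4346 SP, against 2.6% of all genes; among them Cdt1 was at 1.10 (adjusted p = 0.00632) and -1.32 (adjusted p = 0.0158). Without array 1 of 4346 SP the count against neurosphere SP was 6, against 21.7% of all genes, and without array 3 it was 1, against 19.4%.

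Across the 5 groups, 26 of 45 members had their highest mean in 3447 non-SP and 24 their lowest in 3447 SP. These orders were not counted for all genes. The means of 3447 SP include its array 2, the lowest of that group for 38 of 45 members. Pole spanned 182.6 ± 55.5 in 3447 SP to 609.2 ± 261 (SD, n = 3) in 4346 SP. Probe sets of the members that were not chosen, 41 sets of 30 genes, had the direction of the chosen set in 37 of 41 cases for 3447 SP against non-SP and in 27 of 41 for neurospheres. Of the chosen sets, 7 carry the array maker's mark for probes that can match other sequences, those of Mcm4, Mcm5, Rfc2, Pold1, Fen1, Rrm2 and Ccne1.

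**Figure D5:**
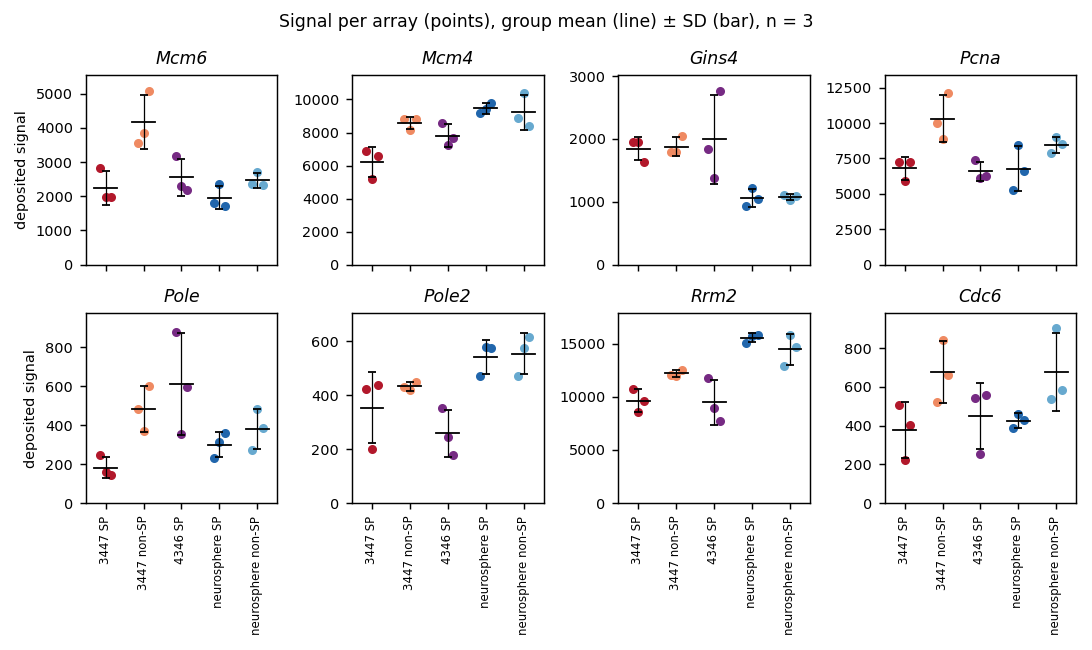
Deposited signal (y axis, linear, from 0) of 8 genes in the 5 groups (x axis); points are arrays, the line is the group mean and the bar ± SD (n = 3). Mcm6 and Pole are lower in 3447 SP than in 3447 non-SP without overlap, Gins4 is higher in the tumour groups, and Rrm2 is lower in the tumour SP groups than in neurosphere SP.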

How the data were processed

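The deposited intensities are MAS5 signals, linear in scale, which the authors computed with Affymetrix Expression Console, per the submitters' processing notes; versions are not given in the sources used here. Per the labels' protocols, RNA was amplified with the Ovation Pico kit of NuGEN before biotin labelling. The mean signal without the extreme 2% of probe sets was 500 on each deposited array, so arrays had been scaled to a common mean.

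Signals are printed as deposited. Differences came from quantile-normalized values as log2(signal + 16), which understates changes of weak genes, after keeping probe sets above their array's median on at least 3 arrays. limma 3.58.1 (R 4.3.3; lmFit, eBayes with trend) fitted 5 group means to all 15 arrays, two-sided, with Benjamini-Hochberg adjustment over 11908 genes at 0.05, in 7 comparisons. Members past the threshold were named with full values (at most 6 in each direction, with the 5 of smallest p where fewer than 3 passed), as were fixed genes for each role; further members complete their roles.

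The number of arrays limits the precision. With 3 arrays against 3, an exact permutation test of a single gene cannot go below p = 0.1, so none is given. On data simulated for 3447 SP against non-SP (11908 genes), 30 of 100 genes changed by log2 1 and 77 of 100 changed by log2 2 were recovered, and 5 calls (4.46%) were false. The simulated noise was independent between genes, with the same SD in every group. Arrays that shift many genes together were not simulated, so these rates need not hold for the measured arrays. Over all genes tested, equal replicate numbers deviated together in neurospheres (correlations 0.58, 0.52 and 0.62) and were taken as pairs there from the data alone, but not in line 3447 (-0.22, -0.25 and -0.12). Over the members alone, the neurosphere correlations were weaker, at 0.06, 0.25 and 0.52, and unequal numbers reached 0.27. The members and gene lists were chosen with earlier results of these data known. Alternatives covered normalization, the added constant, the filter, the probe sets, the model and each array left out.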

Additional observations from a re-analysis of the deposited data

How the results depend on the processing

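The directions of the medians and counts of calls of the members were recomputed under 12 other settings and without each of the 15 arrays. Centring arrays on their medians moved the median of the members to -0.887 in 3447 SP against non-SP, -0.806 for the difference of SP effects and -0.616 in 3447 SP against 4346 SP, while the median of all genes moved to -0.303, -0.356 and -0.383. The number of members called was 5 for 3447 SP against neurosphere SP without replicate 3 of both tumour SP groups (17.7% of all genes). For 4346 SP against neurosphere SP it was 1 with centring (18.6% of all genes), 1 with only the groups compared (14.8%), 5 with array weights (24.7%), 1 without both replicates 3 (18.9%), and 1 to 9 with single arrays left out. For 3447 non-SP against neurosphere non-SP it was 0 with centring (14.7%), 4 with only the groups compared (20.6%), and 0 to 3 with single arrays left out. For 3447 SP against 4346 SP it was 4 with centring (3.08%), 0 with only the groups compared (0.974%), 2 with array weights (2.38%), 0 without both replicates 3 (0.573%), and 0 to 6 with single arrays left out. The ranges with single arrays left out are printed here without shares of all genes, so they do not show whether members passed unusually often. The counts below 0 and not overlapping without single arrays, the value of Pola2 without an array and the count within neurosphere pairs were added after seeing the data. The SP against non-SP counts of calls stayed at 0, with a smallest adjusted p of 0.0603 with only the groups compared in line 3447.

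Genes not called that reversed were Mcm6 with the mean of its probe sets, at 0.19 in neurosphere SP against non-SP and -0.051 in 4346 SP against neurosphere SP, and, in 3447 SP against 4346 SP, Rrm2 at -0.352 and Uhrf1 at -0.184 with centring, Rrm2 at -0.00348 with array weights and Rrm2 at -0.00893 without both replicates 3. The cause was not tested. With equal replicate numbers as a block in both origins the counts of members called were 0, 0, 0, 3, 3, 2 and 1 for the 7 comparisons in the order of the report. With the replicate block in neurospheres only, Ccne1 was added in 3447 SP against neurosphere SP, giving 4, and no other call changed. The block counts are printed without shares of all genes, so they do not show whether members passed unusually often.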
